A study of Gallus gallus with 2 samples.

Results

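Solute carriers are membrane proteins that move ions, nutrients, metabolites and cofactors across the plasma membrane and the membranes of organelles. The genes described here carry an SLC symbol and belong neither to the families SLC1A, SLC2A, SLC3A, SLC7A and SLC38A, which transport glucose and many of the amino acids, nor to the SLCO family. They were measured in DT40 cells, a B cell line derived from the bursa of Fabricius of the chicken. The 2 clones were a double knockout of the genes of the histone variant H2A.Z and a wild type. H2A.Z protein was not measured. Members had to show a signal above 58 on at least 1 of 2 arrays, which held for 176 of 241 such genes on the array (73.0%). Over the whole array, 9550 of 13009 genes passed the same threshold (73.4%). The other 65 genes of these families stayed at or under 58 on both arrays. Since detection was part of the rule, that members are detected is no finding.

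The knockout clone was labelled a double knockout of both H2A.Z genes, H2A.Z-1 and H2A.Z-2. H2A.Z-2 was disrupted in a lasting way. H2A.Z-1 came from a tetracycline-responsive transgene that was switched off by 3 days of tetracycline before RNA was taken. The other array held a clone labelled wild type. Its labels do not say whether it also received tetracycline, and if it did not, drug and genotype cannot be told apart. Both cultures grew under the same stated conditions, with chicken and calf serum, and each stands for 1 clone. There was 1 array per group. No difference below has a replicate check, no test was made, and precision is limited by so few arrays. Fewer cells of a kind and less RNA per cell cannot be told apart in such RNA.

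Values are MAS5 signals, a linear brightness per probe set, and a gene is represented by the probe set whose log2 signal, averaged over both arrays, was highest. Ratios are given as log2 of the knockout signal minus log2 of the wild-type signal, after signals under 58 were set to 58. Where 1 array was under that floor the fold of the representative probe set is a bound and is written "at least". Ratios of other probe sets had the same floor and can be bounds without being marked each time. A small ratio of that kind can stand for a larger difference. Signals of different probe sets do not rank transcript amounts, because probe sets differ in their response. In 2240 genes with exactly 2 probe sets detected in both clones, the SD of a single log2 ratio was 0.42, taken from the disagreement of the probe sets, and in the 53 such SLC genes it was 0.36. That spread holds probe error and differences between transcript forms, not the spread between cultures.

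The arrays had equal trimmed means of 500.2. The targeted gene H2AFZ (H2A.Z-1) had a signal of 387 on the knockout array, against 27331 on the wild-type array, and H2AZ2 (H2A.Z-2) had 17.6 on the knockout array, against 18244 on the wild-type array. Of 12 B cell markers 11 were measured, all above the floor on both arrays. Their summed signal was 59330 on the knockout array and 81423 on the wild-type array, of which IGLL1 gave 24102 and 25046. Of the 11 markers, 9 were lower and 2 higher on the knockout array, with a median log2 ratio of -0.67. At least 2-fold lower were 3 (27.3%, where all measured genes gave 6.71%), CD74 (-1.44), IKZF1 (-1.34) and CD72 (-1.165). Among markers of other cell types, the 4 measured T cell genes summed to 4312 on the knockout array and 12669 on the wild-type array, nearly all from CD3D (4162 in the knockout, 12407 in wild type), and 3 others were at or under the floor on both arrays. The 3 measured myeloid and thrombocyte genes summed to 1517 in the knockout and 2931 in wild type. Most of that sum was SPI1 (1174 in the knockout, 2748 in wild type), while CSF1R and ITGB3 were higher in the knockout, by log2 ratios of 0.69 and 1.03. The 2 erythroid genes summed to 210.4 in the knockout and 92.6 in wild type, and the 6 fibroblast genes to 934 in the knockout and 786 in wild type. The actin control probe sets had a 3′ to 5′ signal ratio of 1.95 on the knockout array and 1.13 on the wild-type array. That ratio was 1.07 in the knockout and 1.03 in wild type for GAPDH, and 1.46 in the knockout and 1.23 in wild type for EF1A. The part of marker levels and of this 3′ bias in the results below was not tested.

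Solute carriers are grouped into families by sequence, and most families share a kind of substrate. Mitochondrial carriers of the SLC25 family connect the cytosol with the mitochondrial matrix, SLC35 proteins supply the Golgi with activated sugars for glycosylation, and SLC30 and SLC39 proteins lower and raise cytosolic zinc. In proliferating lymphocytes such carriers feed energy metabolism, nucleotide and lipid synthesis and the making of glycoproteins. The roles named below are those known from the human and mouse proteins.

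Across the 176 measured SLC genes both arrays were close. The median log2 ratio was 0.07, against 0.02 for all measured genes. On the knockout array 101 members were higher and 75 lower, so that 57.4% were higher where 51.5% of all measured genes were. The higher ones include 26 detected in the knockout alone and the lower ones 14 detected in wild type alone, where the floor fixes the direction. Of the 136 members above the floor on both arrays, 75 were higher (55.1%, against 50.1% of all such genes) and 61 lower. At least 2-fold higher were 7 members (3.98%, where all measured genes gave 3.95%), and at least 2-fold lower were 4 (2.27%, where all measured genes gave 6.71%). As deposited, the share of higher genes was thus that of the array as a whole, and the share of lower genes was smaller. At 1.5-fold there were 27 higher members (15.3%, against 12.6% of all measured genes) and 25 lower ones (14.2%, against 15.9%), which left 124 members within 1.5-fold. The middle 50% of member ratios lay between -0.32 and 0.37, and those of all measured genes between -0.36 and 0.33. These counts depended on scaling. Aligning the median signals of both arrays moved the median of all measured genes to 0.16 and that of SLC genes to 0.23. Then 14 members were at least 2-fold higher (7.95%, against 5.84% of all measured genes) and 4 lower (2.27%, against 4.93%). The lower share of all genes past 2-fold shifted to 45.8%, against 63.0% as deposited.

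**Figure D1:**
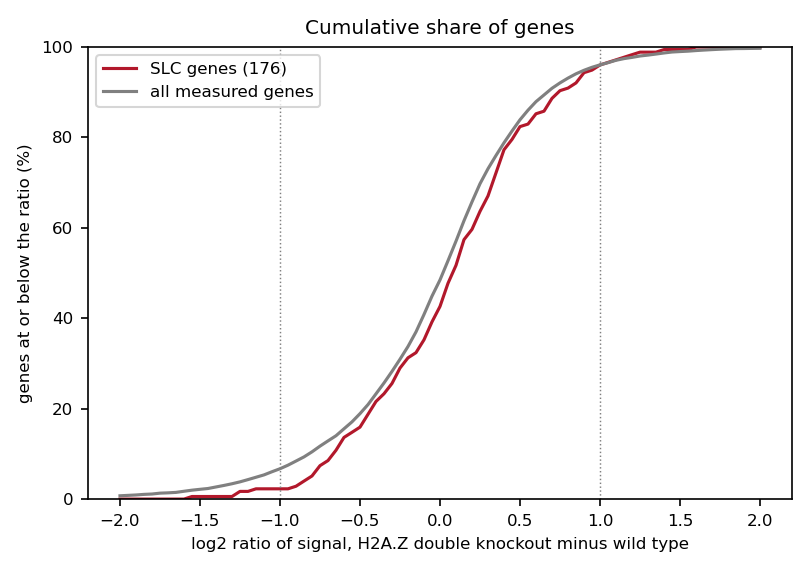
Cumulative share of genes (vertical axis, percent) at or below each log2 ratio of signal, H2A.Z double knockout minus wild type (horizontal axis), for the 176 SLC genes (red) and all measured genes (grey). The curves nearly meet at a ratio of 1, with 3.98% of SLC genes and 3.95% of all genes at least 2-fold higher, and part at -1, where 2.27% of SLC genes and 6.71% of all genes lie at or below.

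On the representative probe set, detection differed between the arrays for 40 members. That probe set was detected in the knockout alone for 26 (14.8%, against 9.47% of all measured genes). It was detected in wild type alone for 14 (7.95%, against 6.63%), and on both arrays for 136. Other probe sets can differ: for SLC22A3, counted as knockout alone, another had 59.5 in the knockout and 67.5 in wild type. For SLC26A1, also counted as knockout alone, another had 34.0 in the knockout and 64.2 in wild type. Most of the 40 members stood close to the floor, and a bound was at least 2-fold in 3 of them, SLC24A2, SLC9A5 and SLC35A5. Of all 9550 measured genes, 377 were at least 2-fold higher and 641 lower. Among these, 259 and 525 were above the floor on both arrays. The rest were bounds, from 904 genes detected in the knockout alone and 633 in wild type alone. Members with a mean signal above the members' own midpoint of 299.9 were higher on the knockout array in 61.4% of cases, where 50.2% of all genes as bright were. The dimmer members were higher in 53.4%, the share of all genes as dim (53.4%). Just inside the threshold of the rule were SLC45A2, SLC51AL and SLC30A10, with highest signals of 58.3, 58.7 and 59.5. Just outside were SLC25A47, SLC35F1 and SLC4A10, with 57.97, 57.88 and 57.86.

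For comparison, the SLC families left out by the rule together with SLCO had 42 measured genes and a median log2 ratio of 0.29. Of these, 8 were past 2-fold higher (19.0%, where all measured genes gave 3.95%) and 1 past 2-fold lower (2.38%, where all measured genes gave 6.71%). The values stand side by side without a test.

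**Figure D2:**
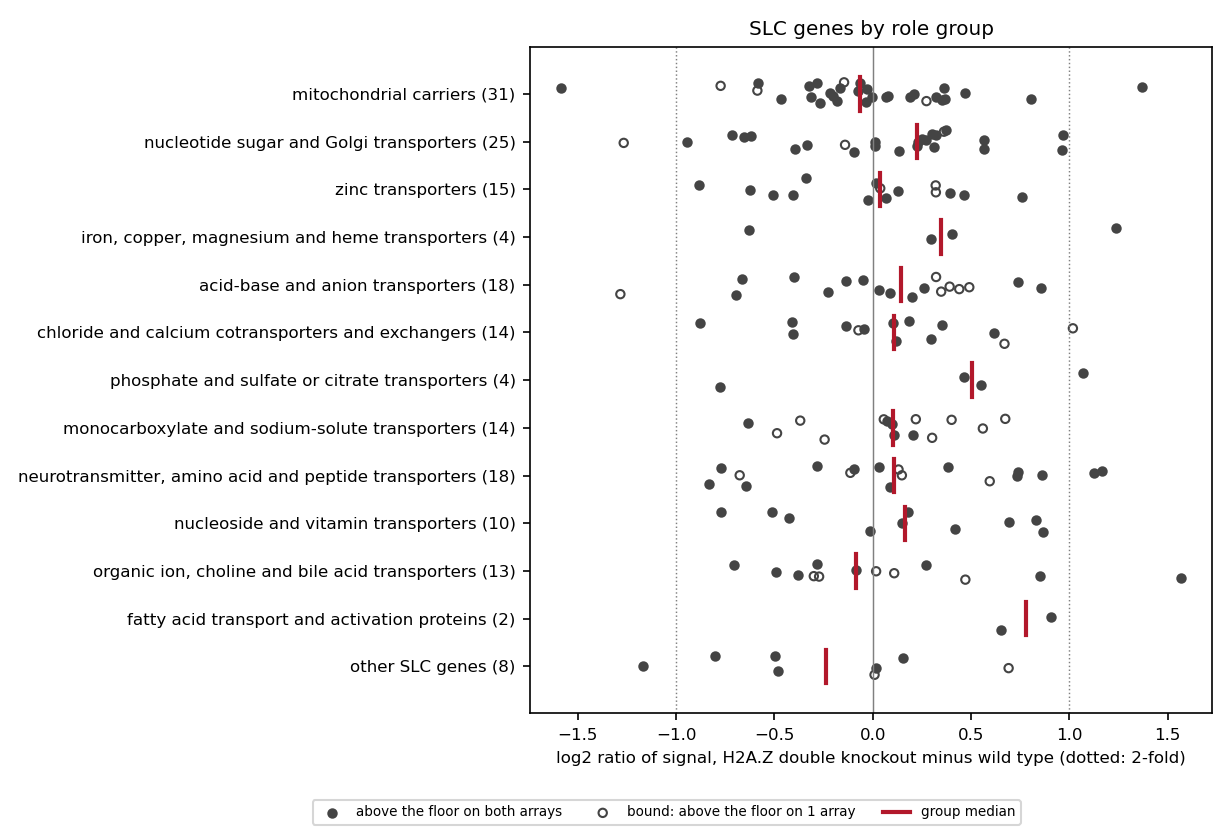
Log2 ratio of signal, H2A.Z double knockout minus wild type (horizontal axis), of each SLC gene by role group (rows, number of genes in brackets). Filled points are genes whose representative probe set was above the floor on both arrays, open points are bounds and red bars are group medians. Most points lie between the dotted 2-fold lines; the mitochondrial carriers have a median of -0.07, which becomes 0.09 when array medians are aligned, and the medians of the zinc (0.04), acid-base (0.15), chloride and calcium (0.11), phosphate (0.51), neurotransmitter (0.11) and organic ion (-0.08) groups also change sign under at least 1 other setting.

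Of the 7 members at least 2-fold higher, the highest ratio was that of SLC44A1, a choline transporter of the plasma membrane and mitochondria, whose gene lies on chromosome Z. It had a signal of 226 on the knockout array, against 76.3 on the wild-type array, 2.96-fold higher. A further probe set gave 152 in the knockout and 52.5, under the floor, in wild type, and the last gave 135 in the knockout and 109 in wild type. All 3 were thus higher on the knockout array, by log2 ratios between 0.30 and 1.57, on dim signals.

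SLC25A1, the citrate carrier that exports citrate from mitochondria as a source of cytosolic acetyl-CoA, lies on chromosome 15. Its signal was 1292 on the knockout array, against 499.7 on the wild-type array, 2.59-fold higher, and its other probe set had a log2 ratio of 0.99. SLC6A9, the glycine transporter GLYT1, on chromosome 8, had 3271 in the knockout, against 1456 in wild type, 2.25-fold higher, on 1 probe set of the kind shared between transcripts. Both were well above the floor on both arrays, and SLC25A1, SLC6A9 and SLC44A1 kept log2 ratios of at least 1.18, 1.14 and 1.08 under every setting that measured them.

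In the next 2 genes the probe sets disagreed. SLC41A1, a magnesium transporter, had 465 on the knockout array, against 197 on the wild-type array, 2.36-fold higher, but its 4 probe sets ranged from -0.24 to 1.24. SLC34A1, a sodium-phosphate cotransporter best known from kidney, had 801 in the knockout, against 381 in wild type, 2.10-fold higher. A dim probe set had a log2 ratio of -0.59 as a bound, the direction the gene takes without shared probe sets. The gene's direction therefore changes with the choice of probe set.

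SLC6A12, a transporter of betaine and GABA, had 142 on the knockout array, against 65.1 on the wild-type array, 2.18-fold higher, with its 2 other probe sets also higher (0.65 and 0.15). SLC24A2, a potassium-dependent sodium-calcium exchanger, had 117 in the knockout and 41.7, under the floor, in wild type, at least 2.02-fold higher. These are dim signals on both sides.

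**Figure D3:**
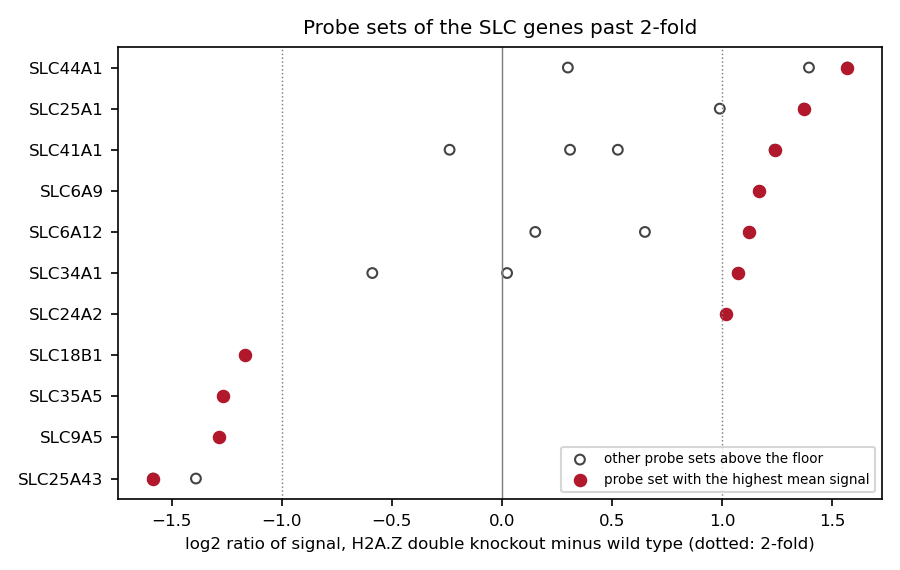
Log2 ratio of signal, H2A.Z double knockout minus wild type (horizontal axis), of every probe set above the floor for the 11 SLC genes past 2-fold (rows), with the probe set that represents the gene in red and the others open. The 2 probe sets of SLC25A1 and of SLC25A43 lie close together, while those of SLC41A1 and SLC34A1 reach both sides of 0.

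Of the 4 members at least 2-fold lower, SLC25A43 was the farthest. This mitochondrial carrier, whose substrate is not established, had a signal of 221 on the knockout array, against 662 on the wild-type array, 3.0-fold lower. Its other probe set was lower too (log2 ratio -1.39 as a bound). In the chicken reference annotation its gene is the neighbour of SLC25A5, an ADP/ATP carrier, on chromosome 4. SLC25A5 had 23104 on the knockout array and 23207 on the wild-type array, a log2 ratio of -0.006, so the neighbours did not share a difference on their brightest probe sets.

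SLC18B1, a vesicular polyamine transporter on chromosome 3, had 1252 on the knockout array, against 2812 on the wild-type array, 2.25-fold lower on its only measured probe set. SLC9A5, a sodium-proton exchanger, had 50.8, under the floor, in the knockout, against 141 in wild type, at least 2.44-fold lower. SLC35A5, a member of the nucleotide sugar transporter family, had 56.6, also under the floor, in the knockout, against 139.6 in wild type, at least 2.41-fold lower. Both bounds rest on 1 dim probe set each.

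Mitochondrial carriers formed the largest group, with 31 of 33 genes measured. Only SLC25A1 (higher) and SLC25A43 (lower) passed 2-fold, 3.23% each way, where all measured genes gave 3.95% higher and 6.71% lower. By at least 1.5-fold, 2 were higher (6.45%, against 12.6% of all measured genes) and 3 lower (9.68%, against 15.9%). The remaining 26 were within 1.5-fold. Of the group, 12 were higher (38.7%, against 51.5% of all measured genes) and 19 lower. The group median was -0.07, which turned to 0.09 when array medians were aligned. SLC25A6, an ADP/ATP carrier, had 34179 on the knockout array and 29538 on the wild-type array (log2 ratio 0.21), and SLC25A3, the phosphate carrier, had 25869 in the knockout and 20659 in wild type (0.32). SLC25A4, SLC25A5 and SLC25A6 are close paralogs, so shared hybridisation between them cannot be told apart from their own signal.

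Several carriers with bright probe sets were within 1.5-fold. SLC25A13, an aspartate-glutamate carrier, had 8010.0 on the knockout array and 9324 on the wild-type array (log2 ratio -0.22, with 3 probe sets all lower, to -0.79). SLC25A22, a glutamate carrier, had 7078 in the knockout and 8527 in wild type (-0.27, its other probe set -0.75). For SLC25A32, which brings folate and FAD into mitochondria, the 4 probe sets lay between -0.087 and 0.14, around 0. Within 1.5-fold on the lower side, by their brightest probe sets, were also the aspartate-glutamate carrier SLC25A12 (log2 ratio -0.17) and the ornithine carrier SLC25A15 (-0.28). The other probe set of SLC25A15 was past 1.5-fold lower (-0.635). Also there were the carnitine-acylcarnitine carrier SLC25A20 (-0.33, its other probe set 0.20) and the S-adenosylmethionine carrier SLC25A26 (-0.31, its other probe set 0.016).

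The mitoferrins bring iron into mitochondria for heme and iron-sulfur clusters. SLC25A37, mitoferrin-1, had 1739.5 on the knockout array, against 996 on the wild-type array, 1.75-fold higher, with its 2 other probe sets at log2 ratios of 0.31 and 0.037, so that the median over its probe sets was 0.31. SLC25A28, mitoferrin-2, had 1511 in the knockout and 1183 in wild type, a log2 ratio of 0.35, within the probe set SD of 0.42. SLC25A38, the glycine carrier used in heme synthesis, differed by only 0.076.

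Carriers of nucleotides lay on both sides of wild type. SLC25A24, an ATP-Mg/phosphate carrier regulated by calcium, had 5061 on the knockout array, against 3944 on the wild-type array (log2 ratio 0.36, its other probe set 0.72). The related SLC25A25 had 185 in the knockout and 209 in wild type (-0.18, its other probe set -0.68), and SLC25A42, a carrier of coenzyme A, had 38.7, under the floor, in the knockout and 64.2 in wild type. SLC25A36, a pyrimidine nucleotide carrier, had a log2 ratio of 0.47 with its other probe set at -0.066, and its relative SLC25A33 was at -0.030. The NAD carrier SLC25A51 (0.066) and the peroxisomal carrier SLC25A17 (0.36) were within 1.5-fold.

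Among dim mitochondrial carriers, SLC25A29, which carries basic amino acids, had 49.3, under the floor, on the knockout array, against 99.2 on the wild-type array, at least 1.71-fold lower. SLC25A48 had 48.2, under the floor, in the knockout and 87.1 in wild type. SLC25A30 had 205 in the knockout, against 308 in wild type (log2 ratio -0.58). These 3 and SLC25A43 were the lowest of the group.

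**Figure D4:**
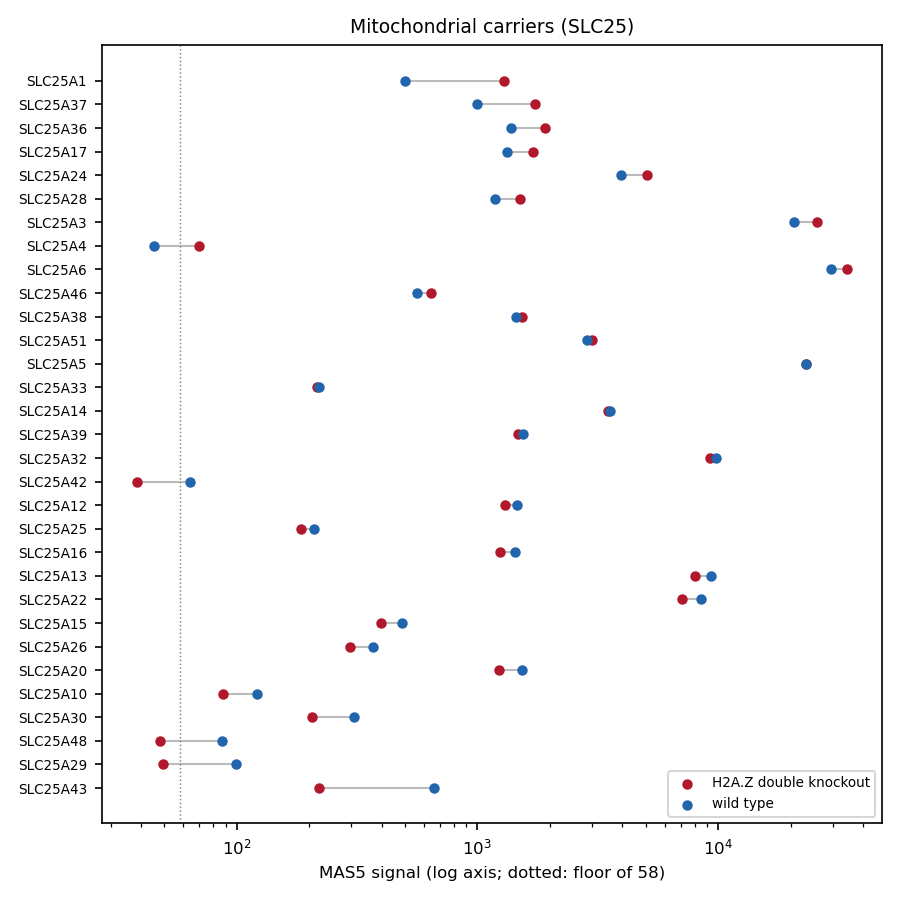
MAS5 signal (horizontal log axis) of the 31 mitochondrial carriers (rows, ordered by log2 ratio) on the H2A.Z double knockout array (red) and the wild-type array (blue), with the floor of 58 dotted. Most pairs of points nearly touch; SLC25A1 at the top (1292 in the knockout, 499.7 in wild type) and SLC25A43 at the bottom (221 in the knockout, 662 in wild type) stand apart.

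Nucleotide sugar and Golgi transporters had 25 of 29 genes measured, 16 higher (64.0%, against 51.5% of all measured genes) and 9 lower. Their median of 0.23 kept its sign under the 11 other settings (0.13 to 0.38). The group also holds SLC33A1 and 3 SLC37 genes, some of them transporters of the endoplasmic reticulum. The 21 SLC35 genes alone had a median of 0.135, with 13 higher (61.9%, against 51.5% of all measured genes) and 8 lower. In the whole group of 25, none was at least 2-fold higher, where all measured genes gave 3.95%. SLC35A5 was the only one at least 2-fold lower (4.0%, where all measured genes gave 6.71%). By at least 1.5-fold, 2 were higher (8.0%, against 12.6% of all measured genes) and 5 lower (20.0%, against 15.9%). SLC35A1, which carries CMP-sialic acid, had 1772 on the knockout array and 1437 on the wild-type array (log2 ratio 0.30, its other probe set -0.45). SLC35C1, for GDP-fucose, had 1030.3 in the knockout and 1024 in wild type. SLC35D1, for UDP-glucuronic acid and UDP-GalNAc, was at 0.27 and SLC35B4, for UDP-xylose and UDP-GlcNAc, at 0.31, with 5 probe sets from -0.42 to 0.62.

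The UDP-GlcNAc transporter SLC35A3 was lower, with 244 on the knockout array, against 375 on the wild-type array, 1.54-fold lower. Of the transporters for the sulfate donor PAPS, SLC35B2 had a log2 ratio of 0.14 and SLC35B3 of -0.40, so both were within 1.5-fold. A pair of orphan members with concordant probe sets differed more: SLC35E4 had 1193 in the knockout, against 609 in wild type, 1.96-fold higher, and SLC35E2B had 1405 in the knockout, against 2309.8 in wild type, 1.64-fold lower. Their other probe sets were at 0.77 and -0.70.

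Sugar phosphate transporters of the SLC37 family went different ways. SLC37A4, which takes glucose 6-phosphate into the endoplasmic reticulum, had 129 on the knockout array, against 247 on the wild-type array, 1.92-fold lower. SLC37A3 had 311 in the knockout, against 159 in wild type, 1.95-fold higher, with 4 probe sets from 0.069 to 0.96, and SLC37A2 had 2226 in the knockout, against 1506 in wild type (log2 ratio 0.56, its other probe set 0.52). SLC33A1, the acetyl-CoA transporter of the endoplasmic reticulum, had 4260.4 on the knockout array, against 2875 on the wild-type array, and its 3 probe sets were all higher, between 0.53 and 0.83.

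Zinc transporters had 15 of 18 genes measured, with 9 higher (60.0%, against 51.5% of all measured genes) and 6 lower. None was past 2-fold, where all measured genes gave 3.95% higher and 6.71% lower. The group median was 0.04 and turned negative under 3 of 11 alternatives, as low as -0.03. Exporters of the SLC30 family were split, 4 higher and 4 lower. SLC30A5, which loads zinc into the secretory pathway, had 6589.5 on the knockout array, against 4777 on the wild-type array (log2 ratio 0.46, its other probe set at 0.001). SLC30A1, the exporter of the plasma membrane, had 848 in the knockout and 646 in wild type (0.39). SLC30A6, the partner of SLC30A5, was on the lower side, with 319 in the knockout, against 454 in wild type and probe sets at -0.51 and -0.50. SLC30A4 (-0.34, its other probe set -0.69) and SLC30A9 (-0.41, its other probe set -0.42) lay there too. SLC30A2, a vesicular exporter, had the highest ratio of the group, with 131 in the knockout and 77.3 in wild type, on a dim probe set.

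Of the importers, SLC39A13, which releases zinc from intracellular stores, had 175 on the knockout array, against 324 on the wild-type array, 1.85-fold lower, with both probe sets alike (-0.89 and -0.95). SLC39A9 had 1069.9 in the knockout, against 1653 in wild type, 1.54-fold lower. SLC39A11 (0.014), SLC39A3 (0.068) and SLC39A6 (0.13) were within 1.5-fold by their brightest probe sets, though other probe sets of SLC39A11 and SLC39A3 reached -1.33 and -0.88.

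**Figure D5:**
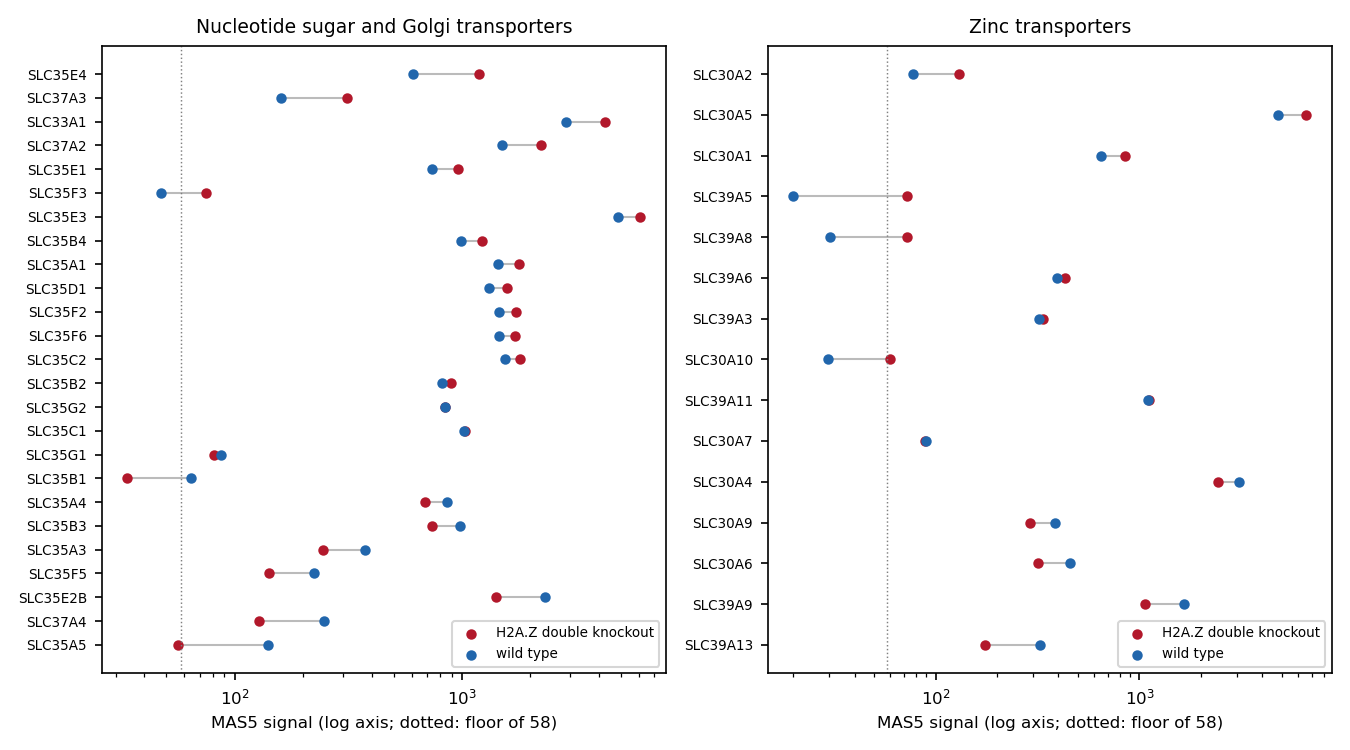
MAS5 signal (horizontal log axes) of 25 nucleotide sugar and Golgi transporters (left) and 15 zinc transporters (right), each ordered by log2 ratio, on the H2A.Z double knockout array (red) and the wild-type array (blue), with the floor of 58 dotted. Red points lie right of blue ones in 16 of the left group (64.0%), which also holds SLC33A1 and the SLC37 genes. They do so in 9 of the zinc group (60.0%), 3 of them detected in the knockout alone. Of all measured genes, 51.5% were higher. The zinc median of 0.04 turns negative under 3 of 11 other settings.

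Metal transporters other than those of zinc were few. Beside SLC41A1, SLC31A1, the copper importer CTR1, had 2742 on the knockout array and 2236 on the wild-type array (log2 ratio 0.29, 6 probe sets from -0.39 to 0.34). SLC48A1, which moves heme out of endolysosomes, had 1217 in the knockout, against 1882 in wild type, 1.55-fold lower on 1 probe set. SLC41A3, another magnesium transporter, was at 0.40, with 3 probe sets from -0.23 to 0.68. The iron exporter SLC40A1 and the phagosomal metal transporter SLC11A1 were not above the floor.

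Acid-base and anion transporters had 18 of 28 genes measured, with 11 higher (61.1%, against 51.5% of all measured genes) and 7 lower. Of these, 5 were detected in the knockout alone and 1 in wild type alone. The group median of 0.15 turned to -0.01 over genes above the floor on both arrays and to -0.05 without shared probe sets. Sodium-proton exchangers of organelles differed in direction. SLC9A7, of the trans-Golgi network, had 2616 on the knockout array, against 1568 on the wild-type array, 1.67-fold higher; its 3 brightest probe sets were all higher and a dimmer one was at -0.69. SLC9A8, of the Golgi, had 1897 in the knockout, against 1048 in wild type, 1.81-fold higher, with its other probe set at 0.23. The endosomal exchanger SLC9A9 went the other way, with 90.7 in the knockout, against 144 in wild type, 1.58-fold lower, and its other probe set lower as well (-1.14 as a bound).

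Among bicarbonate and other anion transporters, SLC4A7, a sodium-bicarbonate cotransporter, had 4986 on the knockout array and 4339 on the wild-type array (log2 ratio 0.20, 3 probe sets up to 0.52), and the anion exchanger SLC4A2 had 307 in the knockout and 359 in wild type (-0.23, its other probe set 0.75). SLC4A1, the anion exchanger of red cells and one of the erythroid markers, had 78.7 in the knockout and 57.3, under the floor, in wild type. SLC26A5, prestin, known from outer hair cells, had 363 in the knockout, against 588 in wild type, 1.62-fold lower.

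Chloride cotransporters and calcium exchangers had 14 of 16 genes measured and a median of 0.11, which turned to -0.05 without shared probe sets. SLC12A2, the sodium-potassium-chloride cotransporter NKCC1, had 530.1 on the knockout array and 467 on the wild-type array (log2 ratio 0.18). Of the potassium-chloride cotransporters, SLC12A4 had 679 in the knockout, against 443 in wild type, 1.53-fold higher with 4 concordant probe sets (0.44 to 0.67), and SLC12A7 had 243 in the knockout, against 322 in wild type, with 2 probe sets at -0.40 and -0.39. SLC24A5, an exchanger of melanosomes, had 157 in the knockout, against 289 in wild type, 1.84-fold lower. Its other probe set was at 0.067 as a bound (60.7 in the knockout and 19.1, under the floor, in wild type). SLC24A1, a photoreceptor exchanger, was at least 1.59-fold higher at 92.3 in the knockout and 51.2 in wild type.

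The phosphate and citrate group held 4 measured genes of 9, and its median of 0.51 turned to -0.06 without shared probe sets. The phosphate importers SLC20A1 and SLC20A2 differed in direction: SLC20A1 had 68.8 on the knockout array, against 118 on the wild-type array, 1.71-fold lower on a dim probe set, and SLC20A2 had 1334 in the knockout, against 968 in wild type, 1.38-fold higher with its other probe set at -0.47. SLC13A5, which imports citrate across the plasma membrane, had 426 in the knockout, against 291 in wild type, 1.46-fold higher, but its 3 probe sets ran from -0.56 to 0.71.

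Monocarboxylate and sodium-solute transporters had 14 of 21 genes measured, with a median of 0.10. No gene of this group passed 2-fold, where all measured genes gave 3.95% higher and 6.71% lower. The lactate and pyruvate transporter SLC16A1 (MCT1) had 6087 on the knockout array and 5797 on the wild-type array by its brightest probe set (log2 ratio 0.070), and its 4 probe sets disagreed, from -1.09 to 0.55. The lactate exporter SLC16A3 (MCT4) was not above the floor. SLC16A10, which carries aromatic amino acids, had 1759 in the knockout and 1635 in wild type (0.11, with 5 probe sets down to -0.79). The SLC5 genes were all dim, and 4 of 7 were higher (57.1%, against 51.5% of all measured genes) and 3 lower. Of these, 3 were detected in the knockout alone, 2 in wild type alone and 2 on both arrays. Over those above the floor on both arrays the median was -0.267. SLC5A1, the sodium-glucose cotransporter SGLT1, was at least 1.59-fold higher (92.5 in the knockout, 54.4 in wild type). SLC5A10 was at least 1.47-fold higher (85.5 in the knockout, 26.2 in wild type), and the monocarboxylate cotransporter SLC5A8 1.55-fold lower (89.3 in the knockout, 139 in wild type).

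In the neurotransmitter, amino acid and peptide group 18 of 29 genes were measured, 6 higher (33.3%, where all measured genes gave 12.6%) and 4 lower (22.2%, where all measured genes gave 15.9%) by at least 1.5-fold. The SD of their log2 ratios, 0.64, was the widest of the groups with more than 10 genes, and that of all measured genes was 0.65. The group median of 0.11 turned to -0.03 when the floor was raised to the 75th percentile. Beside SLC6A9 and SLC6A12, SLC43A2, an exporter of branched-chain amino acids (LAT4), had 979 on the knockout array, against 586 on the wild-type array, 1.67-fold higher. SLC18A1, a vesicular monoamine transporter, had 156 in the knockout and 85.5 in wild type, 1.82-fold higher. SLC43A3, a purine nucleobase transporter, had 2848 in the knockout and 2781 in wild type and so did not differ beyond the probe set spread.

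On the lower side, the taurine transporter SLC6A6 had 304 on the knockout array, against 542 on the wild-type array, 1.78-fold lower, although another probe set was higher (0.31). SLC6A7, a proline transporter, had 61.2 in the knockout, against 105 in wild type, and the imino acid transporter SLC6A20 was at least 1.60-fold lower (39.3 in the knockout, under the floor, and 92.7 in wild type). The amino acid transporters of the SLC36 family split. SLC36A1 had 139 in the knockout, against 83.4 in wild type, with 5 of its 6 probe sets higher. SLC36A4 had 239 in the knockout, against 373 in wild type, with both probe sets lower (-0.65 and -1.20). The lysosomal transporters SLC15A4 (-0.093) and SLC17A9 (0.090) were close to wild type on their brightest probe sets.

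Nucleoside and vitamin transporters had 10 of 15 genes measured, all above the floor on both arrays, with a median of 0.16. SLC19A1, the reduced folate carrier, had 7649 on the knockout array and 6767 on the wild-type array (log2 ratio 0.18). The nucleoside transporter SLC29A1 (ENT1) had 2510.1 in the knockout, against 1881 in wild type, 1.33-fold higher. SLC52A3, a riboflavin transporter, had 1811 in the knockout, against 1019.9 in wild type, 1.78-fold higher on 1 probe set, and SLC46A3, a lysosomal transporter, had 183 in the knockout and 101 in wild type, 1.82-fold higher, with 3 probe sets from -0.43 to 0.87.

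The ascorbate transporters SLC23A1 and SLC23A2 were both lower. SLC23A1 had 256 on the knockout array, against 437 on the wild-type array, 1.71-fold lower. SLC23A2 had 811 in the knockout, against 1090.4 in wild type, a log2 ratio of -0.43 within 1.5-fold, and all 5 of its probe sets were lower, down to a bound of -1.42. The related SLC23A3 was higher by its brightest probe set (0.69) but not by its 2 others (-0.15 and -0.066), and it turned to -0.07 when the median over probe sets was taken.

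Organic ion, choline and bile acid transporters had 13 of 22 genes measured and a median of -0.08, which turned to 0.07 when array medians were aligned, 0.02 without shared probe sets and 0.002 with the median over probe sets. SLC47A1 and SLC47A2, exporters of organic cations that lie next to each other on chromosome 19, were both lower. SLC47A1 had 159 on the knockout array, against 259 on the wild-type array, 1.63-fold lower. SLC47A2 had 9.13, under the floor, in the knockout and 71.4 in wild type. That is at least 1.23-fold lower, on 1 dim probe set of the kind shared between transcripts. Shared hybridisation between SLC47A1 and SLC47A2 was not tested. This pair and that of SLC25A5 and SLC25A43 were the only members found side by side among protein-coding genes of the reference. SLC10A7 had 2319 in the knockout and 2458 in wild type (log2 ratio -0.085), and SLC22A15L had 4 probe sets that ran from -0.86 to 0.85.

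Both measured members of the fatty acid transport proteins, which take up fatty acids and join them to coenzyme A, were higher. SLC27A4 had 3088 on the knockout array, against 1968 on the wild-type array, 1.57-fold higher, with its 2 probe sets at 0.65 and 0.61. SLC27A2 had 509 in the knockout, against 272 in wild type, 1.87-fold higher. SLC27A1 and SLC27A6 were not above the floor on either array.

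Groups followed the prefix of the gene symbol, which left 8 genes in no other group. SLC18B1 and SLC51B are among them, although SLC18A1 stands in the neurotransmitter group and SLC51AL in the bile acid group. Beside SLC18B1, SLC45A1 had 71.9 on the knockout array, against 126 on the wild-type array, 1.75-fold lower on a dim probe set. Its other probe set was at 0.17 as a bound (65.1 in the knockout and 4.07, under the floor, in wild type). SLC51B, a subunit of a bile acid exporter, was at least 1.61-fold higher (93.6 in the knockout, 52.2 in wild type). This group also holds 3 genes whose SLC symbols name proteins that bind transporters. The scaffold proteins SLC9A3R1 (NHERF1) and SLC9A3R2 had log2 ratios of 0.15 and 0.016, and their other probe sets were at 0.074 and 0.017. SLC4A1AP, kanadaptin, had 423 in the knockout, against 589.9 in wild type, with 3 probe sets from -1.37 to 0.40.

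Probe sets of the same gene often disagreed. Of 100 members with several measured probe sets, 55 had all of them on the same side of 0 (55.0%, as in 55.2% of such genes over the whole array) and 45 did not. In 9 members every one of several probe sets passed 1.5-fold in the same direction (9 of 100), as in 427 of 4427 such genes over the whole array, a similar share. Higher in this way were SLC25A1, SLC27A4 and SLC35E4, and lower were SLC25A43, SLC35E2B, SLC36A4, SLC39A13, SLC47A1 and SLC9A9, a set chosen after the values were seen.

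Genes that work with solute carriers but carry other symbols were described from 3 lists. Among relatives of SLC genes, 18 of 28 were measured, with 2 past 2-fold higher (11.1%), 4 past 2-fold lower (22.2%), where all measured genes gave 3.95% and 6.71%, and a median of 0.05 that turned to -0.15 over genes above the floor on both arrays and -0.07 with the median over probe sets. SFXN1, a mitochondrial serine transporter, had 11488 on the knockout array, against 3832 on the wild-type array, 3.0-fold higher, and MFSD2A, a lysophosphatidylcholine transporter, had 1572 in the knockout, against 630.4 in wild type, 2.49-fold higher. SFXN4 had 789 in the knockout, against 1702 in wild type, 2.16-fold lower, but its other probe set was higher (log2 ratio 0.75). ANKH, which governs export of pyrophosphate and ATP, had 733 in the knockout, against 1712 in wild type, 2.33-fold lower. The lysosomal cystine exporter CTNS had 328 in the knockout, against 693 in wild type, and the ammonium transporter RHBG had 182 in the knockout, against 379 in wild type, 2.11-fold and 2.08-fold lower.

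Of partners and pumps, 8 of 12 were measured, with a median of 0.19. BSG and EMB, the chaperones of monocarboxylate transporters, had log2 ratios of 0.081 (other probe sets up to 0.75) and 0.008, and ATP1B3, a subunit of the sodium pump that drives many of these carriers, had 17119 on the knockout array and 13691 on the wild-type array (0.32). Only TUSC5 passed 2-fold, as a bound, with 127 in the knockout and 57.7, under the floor, in wild type. That is 12.5% higher and 0.0% lower, where all measured genes gave 3.95% and 6.71%. In the iron and zinc response list, 10 of 12 were measured, with a median of 0.20. None passed 2-fold on its brightest probe set, where all measured genes gave 3.95% higher and 6.71% lower. The transferrin receptor TFRC had 9559 in the knockout and 8766 in wild type, while its other probe set was past 2-fold lower (log2 ratio -1.10), and ferritin FTH1 had 34431 in the knockout and 37283 in wild type. ACO1, the iron-sensing aconitase, had 3009.5 in the knockout, against 1687 in wild type, 1.78-fold higher and the highest ratio of the list.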

How the data were processed

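RNA of 2 DT40 clones was hybridised to 1 Affymetrix chicken array each. The deposited values are intensities on a linear scale, MAS5 signals per the submitters' processing notes, 1 per probe set, with equal trimmed means on both arrays; other settings of that step are not stated in those sources. Gene symbols came from the platform annotation, and 174 of the 176 members' Entrez IDs were found in RefSeq (GRCg7b), used for chromosomes and neighbours only. Probe sets with several gene symbols or none were not used.

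Signals were set to at least 58, the rule's own threshold, log2 was taken, and each gene was represented by its brightest probe set (mean log2 signal over both arrays), in Python 3.11.15 with pandas 2.3.3. The design has 1 array per group, so values carry no replicate error, and depth has no counterpart on an array. The members and lists were chosen with earlier results of these data known. Named genes include the 10 highest and 10 lowest members above the floor on both arrays and without probe sets of opposite sign. Members with only 1 measured probe set met this by default, so no second probe set backs their ratios. Among them are SLC6A9, SLC27A2, SLC18A1, SLC52A3, SLC18B1, SLC37A4, SLC20A1, SLC6A7, SLC23A1 and SLC26A5. Also named were up to 4 bounds in each direction, the 6 brightest members and the 3 with the largest ratio in each role group. Further genes were named as examples of their group after their values were seen. The 10 alternatives concerned scaling, floor, detection, pseudocount and probe set choice, and 1 more (aligned array medians) was chosen after seeing the data. The calculation was tested on simulated data, with changes placed only in genes well above the floor and with less noise than the probe set spread. That test therefore does not cover dim members or members whose probe sets disagree.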

Additional observations from a re-analysis of the deposited data

How the results depend on the processing

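The 7 SLC genes at least 2-fold higher became 19 with the floor set to the 25th percentile of all signals, 3 with the 75th percentile, 4 with a pseudocount equal to the floor, 4 with the median over all measured probe sets, 4 without shared probe sets (those ending in _s_at, _x_at or _a_at) and 14 with array medians aligned. The 4 at least 2-fold lower became 8 with the 25th percentile floor, and 2 each with the 75th percentile floor, for genes detected in both clones, and with the pseudocount. The 75th percentile leaves 93 SLC genes, and leaving out shared probe sets 132. Over all genes, 377 higher and 641 lower became 1215 and 1241 with the 25th percentile floor and 130 and 293 with the 75th. Higher were 10.8% of SLC genes and 10.1% of all genes with the 25th percentile floor, and 3.23% and 2.22% with the 75th. Lower were 4.55% of SLC genes and 10.3% of all genes with the 25th percentile floor, and 2.15% and 5.0% with the 75th. With the 25th percentile floor the SLC genes stayed the 176 members of the rule. The set of all genes grew from 9550 to 12063 by adding dimmer genes. The SLC and all-gene shares at that floor, higher and lower, therefore come from differently filtered sets and cannot be compared directly. The lower share of calls, 63.0% over all genes and 36.4% over SLC genes, became 45.8% and 22.2% with aligned medians. Without shared probe sets it was 61.4% over all genes and 55.6% over SLC genes. With the median over probe sets it was 66.5% over all genes and 50% over SLC genes. For genes detected in both clones it was 67.0% over all genes and 25% over SLC genes. The median ratio of SLC genes, 0.07, stayed between 0.02 and 0.11 under the other 10 alternatives and was 0.23 with aligned medians, which moved the median of all genes to 0.16. SLC34A1 turned from 1.07 to -0.59 without shared probe sets. The cause was not tested in any of these. Of 52 members past 1.5-fold, 49 had the same sign in all settings that measured them, the others being SLC34A1, SLC23A3 and SLC45A1, and 17 stayed past 1.5-fold in all. Signals near the floor limit the dim members. No paired analysis was possible because each group has 1 array.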

Other observations

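SLC25A39, a mitochondrial glutathione carrier, had the widest disagreement between probe sets of any member. Its representative probe set had 1479 on the knockout array and 1548 on the wild-type array, and another had 909.9 in the knockout and 1180.3 in wild type. Its remaining probe set had 1673 in the knockout, against 370 in wild type, a log2 ratio of 2.17, larger than the ratio of any representative probe set among the members. Next in width came SLC4A1AP (-1.37 to 0.40), SLC22A15L (-0.86 to 0.85), SLC34A1 (-0.59 to 1.07), SLC16A1 (-1.09 to 0.55) and SLC45A4 (-0.88 to 0.63). Which of these probe sets reads which transcript was not tested.

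By chromosome, the 7 measured members on chromosome Z were all higher on the knockout array, with log2 ratios from 0.009 for SLC45A2, a bound, to 1.57 for SLC44A1, while 52.9% of the 410 measured genes on Z were higher. Other chromosomes with few members were as one-sided: all 6 members on chromosome 26 and all 5 on chromosome 20 were higher, and none of 3 on chromosome 21. Of all measured genes, 60.6% on chromosome 26, 49.8% on chromosome 20 and 56.0% on chromosome 21 were higher. On chromosome 2, 4 of 12 members were higher, where 43.9% of 789 measured genes were. These chromosomes were picked after their values were seen, and no test was made.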
